A study of Mus musculus with 18 samples.

Results

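The matrix metalloproteinases (Mmp genes), their tissue inhibitors (Timp genes), the ADAMTS proteases and the lysyl oxidases were followed in bulk RNA-seq of mouse livers and liver tumors. Members were taken by gene symbol, as every row whose symbol starts with Mmp, Timp or Adamts followed by a digit, or is Lox or Loxl1 to Loxl4. This rule found 52 of the 28442 genes in the deposited table: 23 Mmp genes, 19 Adamts genes, 5 lysyl oxidases, 4 Timp genes and Mmp24os1, a transcript named for the strand opposite Mmp24 that is not a protease.

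The study used Alb-R26Met mice, in which Cre driven by the Alb (albumin) promoter of the hepatocyte lineage switches on a Met receptor transgene held silent at the Rosa26 locus. All mice were male F1 animals of a cross of C57BL/6JRj with another inbred strain. Both groups carried the same genotype, so a difference between them is not an effect of the transgene against its absence. The reference group was the liver of 6 mutant mice, 52 to 71 weeks old (median 56.5), that had stayed free of tumors. The other group was 12 advanced tumors from mice 49 to 72 weeks old (median 65), tumors 11 and 12 being from the same animal, which gives 17 mice for 18 samples. A tag in the sample names splits both groups, with E19 on 2 livers and 7 tumors. The other 4 livers and 5 tumors have E20, and the meaning of the tag is not given in the sources used here.

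Values are TPM, shares of each sample's transcripts corrected for their length, which allows genes to be compared with each other, rounded to whole numbers in the deposited table. A listed 0 therefore stands for any TPM that rounds to 0, and the reads behind a value are unknown. Totals ran from 835144 to 884597 in livers and from 845356 to 907513 in tumors. Tumor 2 stood apart: values listed under the gene Siglece made up 82.9% of its total, against 17.9 to 53.4% in the other samples. The other genes shared the rest of the total, so their TPM depend on this share in every sample. Whether the share reflects true expression of Siglece was not tested. To compare samples, values were divided by 1 factor per sample (called scaled TPM here), which was 0.195 in tumor 2 and 0.790 to 1.42 elsewhere, so a deposited 1 in tumor 2 became 5.14. The targeted gene, Met, had a deposited median of 26.5 in livers and 124 in tumors (limma on the scaled values, adjusted p = 3.6e-08). On the scaled values every tumor lay above every liver for Met, as for 2.18% of all genes tested. Hepatocyte markers were high in all samples, with a score (mean log2 of scaled TPM + 1) of 10.5 to 10.8 in livers and 8.99 to 10.8 in tumors.

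The extracellular matrix of the liver is a small amount of collagen, laminin and proteoglycan around the vessels and in the space between hepatocytes and sinusoidal cells. Matrix metalloproteinases cut it, either as secreted enzymes or bound to the cell surface, and Timp proteins block them. ADAMTS enzymes trim procollagens and cut proteoglycans, and lysyl oxidases link collagen and elastin chains to each other, which stiffens the matrix. Collagen deposited and cross-linked by activated stellate cells is the scar of liver fibrosis, the usual ground of human liver cancer.

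Most members were listed at 0 or close to it. Of the 52 members, 15 were listed at 0 in all 18 samples, 10 of them Mmp genes and 5 Adamts genes. Over the whole table, 12874 of the 28442 genes were at 0 in all samples. A further 10 members never exceeded a deposited value of 1. The collagenases Mmp1a, Mmp1b and Mmp8, the stromelysins Mmp3 and Mmp10 and the membrane-bound Mmp16, Mmp17 and Mmp25 were among those at 0 throughout. The 37 members above 0 in some sample comprised 26 seen in both groups, 10 seen in tumors alone and Adamts3, a procollagen protease listed at 1 in liver 2 alone. With 12 tumors and 6 livers, a gene near 0 had more samples in which to be listed among tumors. The share of all genes in this split was not computed. Per sample, 15 to 22 members were above 0 in livers (median 18.5) and 11 to 29 in tumors (median 23), the lowest being tumor 2 and the highest tumor 10. Genes were tested only where 6 or more samples had a scaled TPM of 1 or more, which left 18 members. Of these, Mmp24 passed with no liver at 1 or more and Adamts14 and Loxl4 with 1 such liver each, so that they passed through the tumors, while Mmp2 passed with 1 liver and 5 tumors. Adamts5 and Adamts2 passed with 2 such livers each, beside 9 and 6 tumors. Counts over tested members do not speak for the other 34.

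**Figure D1:**
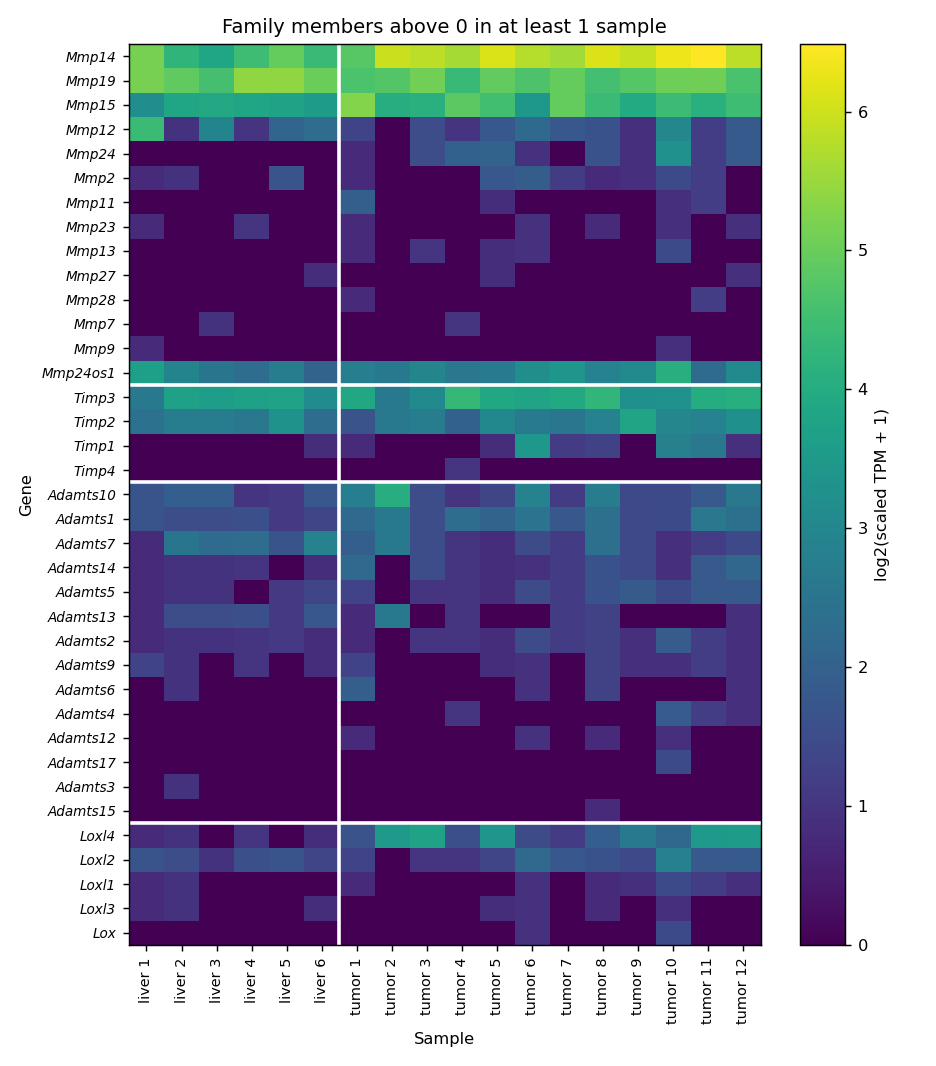
Level of the 37 family members above 0 in at least 1 sample (rows, by family and then by mean level) in the 6 livers and 12 tumors (columns), as log2 of scaled TPM + 1. Mmp14, Mmp19 and Mmp15 form the bright rows in both groups, while Loxl4 and Mmp24 brighten in tumors.

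Genes of membrane-anchored enzymes, of a cross-linking enzyme and of a proteoglycan protease were higher in tumors: Mmp14, Mmp15, Mmp24, Loxl4 and Adamts1. They are 5 of the 18 tested members, where 9.77% of the 11708 genes tested across the whole table were higher. Without scaling between samples, 2 were higher (Loxl4 and Mmp24, at 5.03% of all genes) and Adamts13 lower (at 5.04%). In the scaled fit none of the 18 was lower, against 9.28% of all tested genes, and 1 (Adamts13) was lower at an unadjusted p under 0.05. The median log2 difference of the tested members was 0.27 beside −0.06 for all genes tested, but the filter partly fixes the sign for members that passed through the tumors. Without the filter it was 0.20 over 37 members, beside −0.06 for all genes. With tumor 2 left out, 6 of 19 tested members were higher (the same 5 and Adamts14, at 14.8% of all genes) and Adamts13 was lower (at 11.4%). Without Mmp24, which was listed at 0 in every liver, the median difference of the other 17 was also 0.27. These 17 still hold members with few livers at the level of the filter, among them Loxl4 and Adamts14. Their median is therefore not free of the filter. Calls are from limma on log2(scaled TPM + 1) with Benjamini-Hochberg adjustment over all genes tested, and log2 differences on this scale understate the change of low genes. In bulk tissue, more cells that make a transcript and more transcript per cell cannot be told apart.

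**Figure D2:**
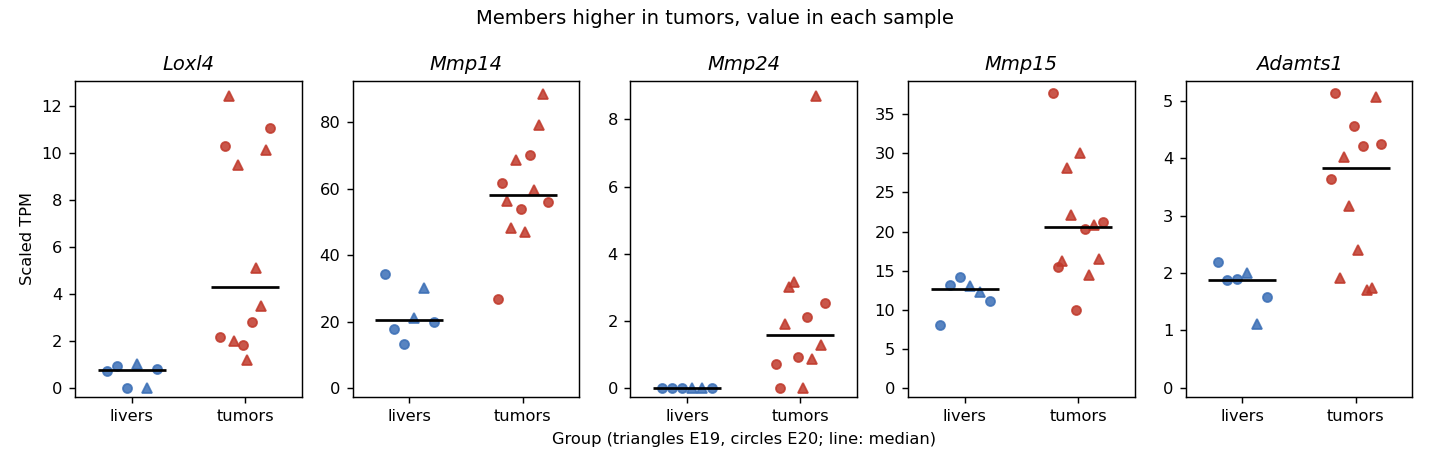
Scaled TPM of the 5 members called higher in tumors in each of 6 livers and 12 tumors, with the group median as a line and the tag in the sample name as the symbol. Every tumor lay above every liver for Loxl4, and 11, 11, 10 and 9 of 12 tumors did for Mmp14, Mmp15, Mmp24 and Adamts1.

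For the members that rose, the 250 bases before the annotated gene start are shown, with those of Mmp13, an inducible collagenase, for contrast. Sequences are from RefSeq on GRCm38.p6, written 5′ to 3′ on the strand of the gene. Capitals mark matches, on either strand, to a TATA box (TATAAA), an AP-1 site (TGANTCA) or a GC box (GGGCGG, written CCGCCC where it lies on the other strand).
Mmp14 (chr14:54431348-54431597, plus strand): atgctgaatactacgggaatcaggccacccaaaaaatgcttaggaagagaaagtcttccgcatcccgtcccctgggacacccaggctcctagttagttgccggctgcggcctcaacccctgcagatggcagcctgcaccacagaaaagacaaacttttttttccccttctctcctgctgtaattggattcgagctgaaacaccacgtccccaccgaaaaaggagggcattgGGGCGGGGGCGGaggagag
Mmp15 (chr8:95352046-95352295, plus strand): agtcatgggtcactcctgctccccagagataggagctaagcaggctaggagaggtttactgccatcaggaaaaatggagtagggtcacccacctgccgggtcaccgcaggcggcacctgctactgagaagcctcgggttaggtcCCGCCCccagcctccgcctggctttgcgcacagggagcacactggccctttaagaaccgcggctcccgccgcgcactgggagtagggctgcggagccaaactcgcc
Mmp24 (chr2:155775092-155775341, plus strand): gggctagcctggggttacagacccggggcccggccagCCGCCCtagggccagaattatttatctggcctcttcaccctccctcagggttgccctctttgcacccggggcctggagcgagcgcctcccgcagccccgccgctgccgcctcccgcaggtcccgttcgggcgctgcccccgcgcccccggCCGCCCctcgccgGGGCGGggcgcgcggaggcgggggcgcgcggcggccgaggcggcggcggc
Loxl4 (chr19:42612807-42613056, minus strand): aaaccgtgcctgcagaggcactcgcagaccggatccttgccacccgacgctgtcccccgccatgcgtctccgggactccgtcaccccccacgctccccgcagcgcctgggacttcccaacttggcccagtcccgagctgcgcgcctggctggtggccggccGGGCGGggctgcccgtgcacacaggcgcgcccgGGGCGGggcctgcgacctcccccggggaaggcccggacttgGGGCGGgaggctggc
Adamts1 (chr16:85803114-85803363, minus strand): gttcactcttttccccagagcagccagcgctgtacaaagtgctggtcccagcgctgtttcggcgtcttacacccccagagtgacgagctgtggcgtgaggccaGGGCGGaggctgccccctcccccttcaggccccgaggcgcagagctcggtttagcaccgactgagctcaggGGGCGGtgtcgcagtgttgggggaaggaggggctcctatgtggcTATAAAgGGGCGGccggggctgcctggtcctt
Mmp13 (chr9:7272264-7272513, plus strand): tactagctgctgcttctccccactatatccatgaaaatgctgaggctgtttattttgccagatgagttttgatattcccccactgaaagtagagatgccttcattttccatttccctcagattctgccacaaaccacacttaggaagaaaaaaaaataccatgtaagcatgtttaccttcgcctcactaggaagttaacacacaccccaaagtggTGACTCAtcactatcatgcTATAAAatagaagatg

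All 5 windows of the members that rose held a GC box: 3 in Loxl4, Mmp24 and Adamts1, 2 side by side in Mmp14 and 1 in Mmp15. Of all 32851 RefSeq windows of this length, 32.7% held at least 1, and of the 37 windows found for 34 members 18 did. None of the 5 held the AP-1 letters (6.75% of all windows, 8 of the 37), and Adamts1 alone held a TATA box (12.4% of all windows, 9 of the 37), 32 bases before the start. The Mmp13 window differed, with a TATA box 16 bases and an AP-1 site 35 bases before the start and no GC box, and a GC content of 40.4% where those of the 5 others ran from 55.2% (Mmp14) to 79.2% (Mmp24), beside a median of 52.4% over all windows. These matches describe letters in a fixed window and no binding was measured.

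Of the 6 genes grouped here as membrane-bound enzymes (Mmp14, Mmp15, Mmp16, Mmp17, Mmp24 and Mmp25), 3 could be tested, and the other 3 were listed at 0 in every sample. Mmp23, kept outside this group, was above 0 in 2 livers and 5 tumors and was not tested. The 3 tested were all higher in tumors, where 9.77% of all tested genes were. Mmp24 passed the filter with no liver at 1 or more, so its direction was set once it was tested. Without scaling between samples the 3 kept this direction while Mmp14 and Mmp15 were no longer called (limma, adjusted p = 0.052 and 0.45). Mmp14, whose product cuts fibrillar collagen at the cell surface and, with Timp2, activates Mmp2, had the highest median level of all members in tumors. Its scaled TPM ran from 13.2 to 34.4 in livers (median 20.4) and from 26.9 to 88.7 in tumors (median 58.02). All tumors but 1 lay above every liver, the exception being tumor 1 with 26.9, below livers 1 and 5. Before scaling, 9 of the 12 tumors lay above every liver. The log2 difference was 1.37 with a standard error of 0.22 (limma, adjusted p = 0.00017). The gene lies at chr14:54431598-54442456.

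Mmp15, a second transmembrane enzyme of this group (chr8:95352296-95374293), moved by less. Its scaled TPM was 8.06 to 14.2 in livers (median 12.7) and 10.02 to 37.8 in tumors (median 20.6). Tumor 1, the lowest for Mmp14, was the highest for Mmp15, and tumor 6 alone fell within the range of the livers (9 of 12 tumors lay above it before scaling). The log2 difference was 0.71 with a standard error of 0.21 (limma, adjusted p = 0.023).

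Mmp24, also a transmembrane enzyme, best known from the nervous system, was listed at 0 in all 6 livers and at 1 to 10 in 10 of the 12 tumors, so no fold is given (limma, adjusted p = 0.011). In scaled TPM the tumors ran from 0 to 8.71 with a median of 1.59, and tumor 10 held the highest value while tumors 2 and 7 were at 0. Over the genes above 0 in any sample, 1.01% were at 0 in all livers and above 0 in at least 9 tumors. The 3′ end of Mmp24 (chr2:155775342-155818367) overlaps Mmp24os1 (chr2:155817730-155819232) by 638 bases, and since no use of strand in the counting is stated, reads from this stretch cannot be told apart. Mmp24os1 was above 0 in every sample, with scaled TPM of 3.16 to 11.7 in livers (median 5.15) and 3.80 to 15.7 in tumors (median 6.51), and was not called (log2 difference 0.27, limma adjusted p = 0.48). Leaving out 1 sample moved this difference between 0.16 (without liver 6) and 0.46 (without liver 1), and it was 0.17 without tumor 10. Its highest tumor, tumor 10, was also the highest for Mmp24.

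Loxl4 was the tested member in which the groups did not overlap. It encodes a lysyl oxidase with scavenger receptor domains and lies at chr19:42592279-42612806. The 6 livers lay between 0 and 1.004 scaled TPM (median 0.76) and the 12 tumors between 1.20 and 12.4 (median 4.30). Every tumor was above every liver, which held for no other tested member and for 2.18% of all genes tested. Before scaling, 11 of the 12 tumors were, since tumor 7 was listed at 1 like 4 of the livers. Tumors were spread widely, with 5 of them (2, 3, 5, 11 and 12) at 9.49 or more and 5 (1, 4, 6, 7 and 8) at 2.81 or less. The log2 difference was 1.93 with a standard error of 0.38 (limma, adjusted p = 0.0013).

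The other lysyl oxidases did not share this pattern. Loxl2, which cross-links basement membrane and fibrillar collagen, had a log2 difference of 0.04 (limma, adjusted p = 0.94). Lox, the founding enzyme of the family, was at 0 in all livers and above 0 in tumors 6 and 10 alone, at deposited values of 1 and 2. Loxl1, needed for elastic fibers, reached 1 in livers 1 and 2 and 1 or 2 in 7 tumors, and Loxl3 did not exceed 1. Loxl4 made up 0 to 33.3% of the summed deposited TPM of the 5 lysyl oxidases in livers (median 18.3%) and 22.2 to 100% in tumors (median 66.7%), with tumors 6, 7 and 10 inside the range of the livers.

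Adamts1, which cuts versican and aggrecan, was the only one of the 7 tested Adamts genes to pass. It lies at chr16:85793827-85803113. Scaled TPM ran from 1.12 to 2.20 in livers (median 1.88) and from 1.70 to 5.14 in tumors (median 3.82). Tumors 3, 9 and 10 stayed within the liver range (7 of 12 tumors lay above it before scaling), and the highest value, in tumor 2, comes from a deposited 1. The log2 difference was 0.64 with a standard error of 0.20 (limma, adjusted p = 0.027). Leaving out liver 5 or liver 6 ended this call (adjusted p = 0.071 and 0.054 in limma), and without scaling between samples the adjusted p was 0.28.

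Among the remaining Adamts genes, log2 differences ran from −0.74 to 0.54 and none was called. The lowest was that of Adamts13, the protease of von Willebrand factor, which stellate cells of the liver make: it was above 0 in all 6 livers at deposited values of 1 to 3 and at 0 in 6 tumors (limma, adjusted p = 0.13). It was called lower when tumor 2 was left out, which then tested 12220 genes with 11.4% lower. Adamts7, which cuts cartilage oligomeric matrix protein, followed at −0.58 (limma, adjusted p = 0.19) and was called lower without liver 1, the liver with the least of it, in a fit with 10.9% of all genes lower. The procollagen proteases Adamts2 and Adamts14 had log2 differences of 0.09 and 0.54, neither called, and Adamts14 was called higher without tumor 2.

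**Figure D3:**
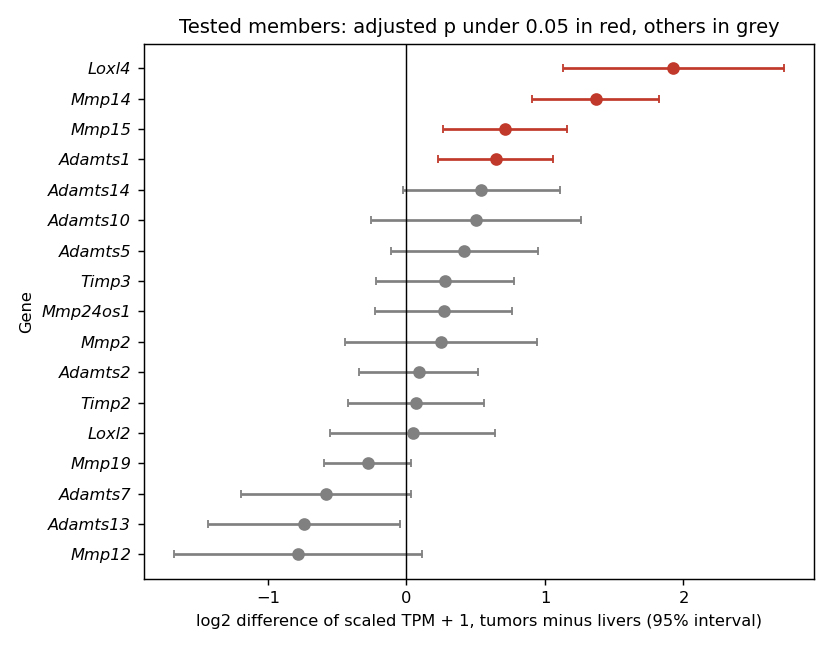
Log2 difference of scaled TPM + 1 between 12 tumors and 6 livers for 17 tested members, with 95% intervals from limma and calls at an adjusted p under 0.05 in red. Mmp24, listed at 0 in every liver, is left out, and the 4 red intervals lie above 0 while that of Adamts13 lies below 0 without passing the adjustment.

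Mmp19, a secreted enzyme outside the classical collagenase, gelatinase and stromelysin groups, had the highest median level of all members in livers. Its scaled TPM ran from 22.7 to 41.3 in livers (median 33.0) and from 20.1 to 33.4 in tumors (median 26.1), with wide overlap. The log2 difference was −0.28 with a 95% interval of −0.59 to 0.03 (limma, adjusted p = 0.21).

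The order of Mmp14 and Mmp19 was reversed between the groups. In deposited TPM, the ratio of Mmp14 to Mmp19 in the same sample was 0.512 to 1 in livers (median 0.619) and 1.12 to 3.13 in tumors (median 2.35). The ratio does not depend on the scaling between samples, and no tumor overlapped the livers. This pair was chosen after the values were seen, so the ratio is given without a test. Of the summed deposited TPM of the 23 Mmp genes, Mmp14 gave 23.0 to 34.6% in livers and 27.8 to 61.4% in tumors. Mmp19 gave 34.6 to 53.3% in livers and 18.9 to 30.2% in tumors.

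**Figure D4:**
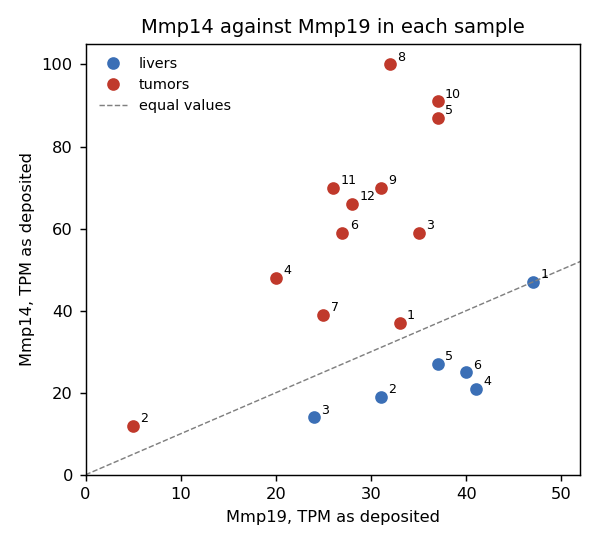
Deposited TPM of Mmp14 against Mmp19 in each sample, numbered within its group, with a dashed line where both are equal. The livers lie on or below the line, with liver 1 at equal values, and all 12 tumors lie above it.

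Together Mmp14, Mmp15 and Mmp19 held 77.2 to 97.4% of the summed Mmp TPM in livers (median 93.4%) and 85.9 to 100% in tumors (median 95.2%). Summed over all Mmp genes, scaled TPM was 57.6 to 99.6 in livers (median 72.3) and 96.6 to 154 in tumors (median 109). Tumors 1 and 6 fell below liver 1, the highest liver, and the other 10 tumors lay above all livers. The sums of the 19 Adamts genes, 7.82 to 16.9 in livers and 8.70 to 30.8 in tumors, overlapped more.

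Neither of the 2 tested inhibitors was called. Timp3, which binds to the matrix and also blocks ADAM and ADAMTS enzymes, had scaled TPM of 5.13 to 12.3 in livers (median 11.7) and 5.14 to 19.1 in tumors (median 13.6). Of the 12 tumors 8 exceeded all livers, and the log2 difference of 0.28, with a 95% interval of −0.22 to 0.78, was not called (limma, adjusted p = 0.47). It was 0.12 without liver 1, the lowest liver. Timp2, the partner of Mmp14 in activating Mmp2, ran from 3.95 to 8.94 in livers (median 5.33) and from 2.18 to 12.8 in tumors (median 6.03). Its log2 difference of 0.07 (limma, adjusted p = 0.88) had a 95% interval of −0.42 to 0.56, turned to −0.06 without scaling and ran from −0.02 to 0.20 with 1 sample left out.

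Timp1, a soluble inhibitor known to rise in injured liver, missed the filter but was uneven among tumors. It was listed at 0 in 5 livers and at 1 in liver 6, and at 0 in 4 tumors. Tumors 6, 10 and 11 stood out at deposited values of 11, 7 and 4, while the remaining tumors were at 1 or 2. Timp4 was at 1 in tumor 4 and at 0 elsewhere. The ratio of summed Mmp to summed Timp TPM was 3.39 to 10.5 in livers (median 4.37) and 3.45 to 10 in tumors (median 5.42). Liver 1 was the highest of all samples, and the upper end of the livers rests on it. The next liver, liver 6, had 5.31, below the tumor median.

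Mmp12, the macrophage elastase, set liver 1 apart from the other livers. It was listed at 28 in liver 1 and at 1 to 7 in the others, with scaled TPM of 0.94 to 20.5 over the livers (median 3.65) and 0 to 6.97 over the tumors (median 2.01). The log2 difference was −0.78 with a standard error of 0.43 (limma, adjusted p = 0.23), and among E19 samples alone it was 0.06. Without liver 1 the difference was −0.36 (limma, adjusted p = 0.56). Liver 1 was not the highest liver for the 8 macrophage and Kupffer cell markers, with a score of 3.05 where liver 5 had 3.51, and it was the highest for neutrophil markers, at 1.02 against 0.420 in the next liver. Their part in the Mmp12 value was not tested.

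The secreted gelatinases were low. Mmp2, gelatinase A, reached deposited values of 2 in liver 5 and 3 in tumors 5 and 6, with a log2 difference of 0.25 (limma, adjusted p = 0.67). Mmp9, gelatinase B, was at 1 in liver 1 and tumor 10 and at 0 elsewhere. Mmp13, the collagenase whose promoter is shown above, was at 0 in all livers and at 1 or 2 in 5 tumors, and Mmp11, stromelysin 3, at 0 in all livers and at 1 to 4 in 4 tumors, highest in tumor 1.

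The Adamts genes that missed the filter but reached a deposited 2 were seen in few samples. Adamts4, an aggrecanase, was at 0 in all livers and above 0 in 4 tumors, with 3 in tumor 10. Adamts6, a relative of the fibrillin-binding Adamts10, was at 1 in liver 2 and above 0 in 4 tumors, with 4 in tumor 1. Adamts17 was at 2 in tumor 10 alone, and Adamts9, a versican protease, reached 2 in liver 1 and in tumors 1 and 8.

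Tumor 10 held the highest deposited value for many of these low genes. Of the 25 members with 1 highest tumor, 11 were highest there: Mmp9, Mmp12, Mmp13, Mmp24, Mmp24os1, Adamts2, Adamts4, Adamts17, Lox, Loxl1 and Loxl2. The count was also 11 on scaled values, where 36 members had 1 highest tumor. The share of all genes highest in tumor 10 was not computed, so the count is not read as a trait of these members. Tumor 8 followed with 6 on deposited values, among them Mmp14, Timp3 and Adamts1. Tumor 10 also had the lowest hepatocyte score of all samples, 8.99 where the next lowest had 10.3, and a mast cell score of 3.07 where the others had 0.701 or less. Neither was tested as a source of its values. With tumor 10 left out, the same 5 members were called higher and none lower, where 9.78% of all genes were higher and 9.12% lower.

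For the tumors that came from 1 mouse, tumors 11 and 12, which members had close values depended on the scaling. In scaled TPM, Timp3 was 15.2 and 16.1 and Loxl4 10.1 and 11.03. Values were further apart for Mmp14 (88.7 and 55.99), Mmp19 (32.9 and 23.8) and Mmp15 (16.5 and 21.2). The same held for Mmp24 (1.27 and 2.55) and Timp1 (5.07 and 0.848). Deposited values were instead close for Mmp14 (70 and 66) and Mmp19 (26 and 28). They were further apart for Timp3 (12 and 19) and Loxl4 (8 and 13). Whether these tumors were closer to each other than to tumors of other mice was not tested. Averaging these tumors left the same 5 members called higher and none lower (9.31% and 8.80% of all genes), and so did age as a covariate (9.63% and 8.77%).

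With the tag as a covariate these 5 and Adamts10 were called higher and none lower, where 10.5% of all genes were higher and 11.2% lower. Differences between tumors and livers had the same sign under both tags for the called members. Mmp14 differed by 1.27 among E19 samples and 1.31 among E20 samples (log2), Loxl4 by 2.09 and 1.79, Mmp15 by 0.65 and 0.70 and Adamts1 by 0.55 and 0.89. An interaction of group and tag in limma was called for 0 of the 18 members and had an unadjusted p under 0.05 for 1, and it was also called for 0 members without scaling, without the filter and with a pseudocount of 0.1. It was called for 0.00% of all 11708 genes tested (9 of 15568 genes without the filter), so the count of members is that of genes at large. With E19 samples alone Mmp14 was called higher and Adamts7 lower, and with E20 samples alone Adamts1 and Adamts10 higher, where 7.73% and 2.82% of all genes tested were higher and, among E19 samples, 5.49% lower.

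Other genes of matrix turnover moved beside these members. Of 55 such genes in a fixed list, 41 were tested, of which 10 were higher and 2 lower, with a median log2 difference of 0.33. Of all genes tested, 9.77% were higher and 9.28% lower, with a median of −0.06. Collagens, the substrates, gave 5 of the 10: Col1a1, Col1a2 and Col3a1 of fibrillar collagen and Col4a1 and Col4a2 of basement membranes, of 11 substrates tested. Col4a2 had scaled TPM of 1.89 to 6.03 in livers (median 4.32) and 12.4 to 36.7 in tumors (median 21.0), with no overlap (log2 difference 2.09, limma adjusted p = 5.0e-07). Every tumor lay above every liver for 2.18% of all genes tested. Col1a1 had 0.94 to 5.02 in livers (median 2.25) and 2.01 to 54.0 in tumors (median 13.8), with 11 of 12 tumors above every liver (log2 difference 2.15, limma adjusted p = 0.0026).

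In the plasminogen system, the other main route of matrix breakdown, genes moved in both directions. Plaur, the urokinase receptor, was at 0 to 1.46 scaled TPM in livers (median 0) and 0 to 7.84 in tumors (median 1.90), with 7 of 12 tumors above every liver (log2 difference 1.17, limma adjusted p = 0.020). Serpine2, an inhibitor of serine proteases, was at 1.46 to 10.4 in livers (median 4.77) and 0 to 3.01 in tumors (median 1.08), overlapping but lower in tumors, with a log2 difference of −1.35 (limma, adjusted p = 0.0023).

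Single genes passed in 4 further groups and none in the cathepsins. Adam10, a sheddase of cell surface proteins, had all 12 tumors above every liver, as did 2.18% of all genes tested. Its median scaled TPM was 4.21 in livers and 10.7 in tumors (log2 difference 1.01, limma adjusted p = 6.0e-05). Adamtsl5, which resembles the ADAMTS genes without being a protease, had 11 of 12 tumors above every liver (log2 difference 1.61, limma adjusted p = 0.0018). Plod3, a collagen lysyl hydroxylase, was higher by 0.54 on the log2 scale (limma, adjusted p = 0.0496). Pcsk6, a convertase that activates secreted proproteins, was lower, with a log2 difference of −0.57 (limma, adjusted p = 0.033), and no tested gene among the activators and regulators was higher.

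Markers of stromal cells did not move as 1 list. Of 10 stellate cell and fibroblast markers, the collagens Col1a1, Col1a2 and Col3a1 were higher and Dcn, Pdgfra, Des and Lrat lower, and their summed scaled TPM overlapped, 54.9 to 81.5 in livers and 37.3 to 148 in tumors. Of 7 endothelial markers Pecam1 and Cdh5 were higher (sums of 40.3 to 92.4 in livers and 36.6 to 226 in tumors), and of 7 tested macrophage and Kupffer cell markers Clec4f and Marco were lower (45.1 to 130 and 10.1 to 95.7). All 3 tested proliferation markers were higher. Among the defining markers, Ms4a1 of lymphocytes and Cxcr2 of neutrophils were at 0 in every sample. The part of cell composition in the differences above was not tested.

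Within the 12 tumors, 5 of the 18 tested members had a positive correlation with the fibroblast marker score at an unadjusted permutation p under 0.05, where 9.11% of 11698 genes did (all genes tested but the markers of the score). With adjustment over all of these genes, none of the 18 members and 0.00% of the genes passed. The values are therefore given as a description. The score itself holds the 3 fibrillar collagen genes named above. Loxl2 had Pearson's r = 0.84 (Spearman's rho = 0.80, unadjusted permutation p = 0.00039 and adjusted p = 0.12), and Mmp2 had r = 0.83 (rho = 0.83, unadjusted permutation p = 0.0013 and adjusted p = 0.20). Adamts2 had r = 0.80 (rho = 0.72, unadjusted permutation p = 0.0010 and adjusted p = 0.18), and Mmp12 had r = 0.76 (rho = 0.72, unadjusted permutation p = 0.0034 and adjusted p = 0.25). Adamts5 was the fifth (r = 0.57, unadjusted permutation p = 0.048 and adjusted p = 0.38). Without tumors 2 and 6, the farthest from the median score, r was 0.737, 0.740, 0.634 and 0.585 for the first 4 in the same order. Tumor 2 was the lowest in the score. Without tumor 2, 4 members had a positive correlation at an unadjusted permutation p under 0.05, where 2.80% of the 11698 genes did, and none passed adjustment over all genes. Without tumors 2 and 10, 3 members had an unadjusted permutation p under 0.05, and the share of all genes was not computed there.

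None of the 5 members higher in tumors was among those 5. Mmp14 had r = 0.37, Mmp24 0.36, Adamts1 −0.10, Mmp15 −0.24 and Loxl4 −0.38, with unadjusted permutation p of 0.22 to 0.77. Without tumors 2 and 6 the r of Mmp14 rose to 0.62, above that of Mmp12 in the same 10 tumors, so its value depends on those tumors. Loxl4 was below its median in tumors 6, 8 and 10, the 3 with the highest marker score, and above it in tumors 2 and 3, the 2 with the lowest. It was also below its median in tumors 4 and 1, the next lowest in the score. Without tumors 2 and 6 the r of Loxl4 was −0.12, and the high Loxl4 value of tumor 2 comes from a deposited 2.

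**Figure D5:**
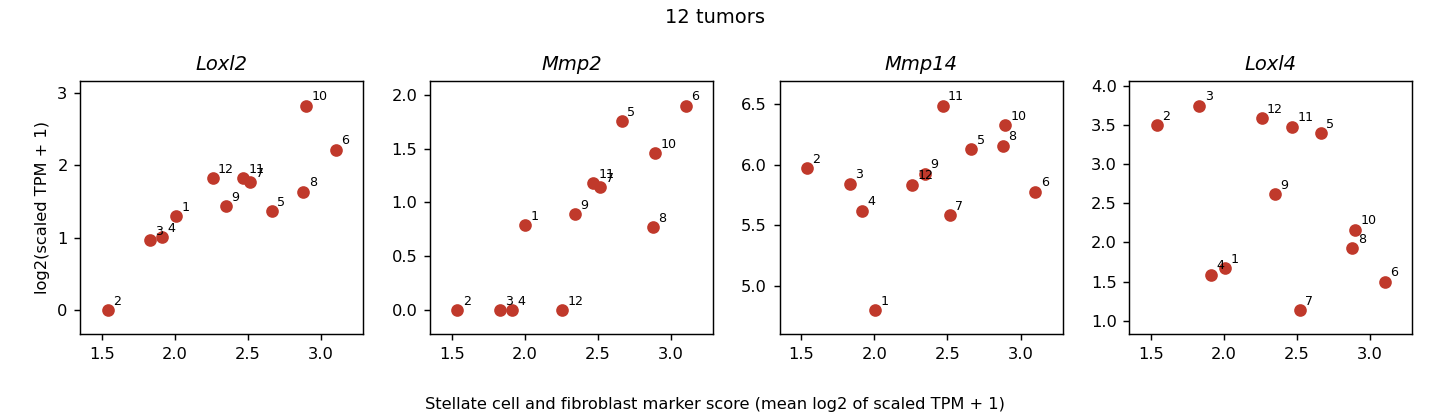
Level of Loxl2, Mmp2, Mmp14 and Loxl4 (log2 of scaled TPM + 1) against the stellate cell and fibroblast marker score in the 12 tumors, numbered. Loxl2 and Mmp2 lie higher where the score is higher, at r = 0.84 and 0.83. Mmp14 had r = 0.37 and Loxl4 −0.38, and without tumors 2 and 6 these were 0.62 and −0.12. None of the 4 passed adjustment over all genes.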

How the data were processed

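Poly-A RNA of 6 livers and 12 tumors was sequenced in pairs of reads. Per the paper's methods and the labels, the authors used GRCm38 (mm10) and quantified genes with Salmon; the submitters' processing notes also name edgeR, with no role given. The deposited table is named as counts, but its whole numbers were read as TPM rounded by the authors, and are therefore a score rather than read counts: sample totals stayed between 835144 and 907513, and nearly all values that the study also gives as TPM match after rounding. The 8 lines with an extra separator were repaired. Since TPM keep no depth, no counting error, interval or smallest detectable level is given, and the count test foreseen for raw reads was not used.

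Values were divided by a trimmed mean of M values factor per sample (30% of M and 5% of A values trimmed, unweighted). Genes that reached a scaled value of 1 in 6 or more samples were fitted as log2(value + 1) by limma 3.58.1 with an intensity trend (R 4.3.3), and an adjusted p under 0.05 was a call. Correlations used 100000 permutations in Python 3.11.15 with numpy 2.4.6 and scipy 1.17.1, the smallest p this can give being 1e-05. Scripts were tested on simulated data.

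Groups came from the labels and ages from the study's mouse table, in which 2 tumors carried another mouse number than in the labels and were matched by tumor number and tag. Livers are of separate mice. Members and gene lists were chosen with earlier results of these data known. Named are the called members, the 5 tested but uncalled members with the highest mean, members that missed the filter but reached a deposited 2, up to 2 called companion genes per group, Adamtsl5 and Met. All other genes were named after their values were seen, and some genes are not reported here. RefSeq positions and sequences were matched by Entrez identifier or symbol, with promoter windows for 34 of 52 members. Replicate numbers shared by livers and tumors 1 to 6 were not used as pairs. Alternatives covered the scaling, filter, pseudocount, weights, tag, age, replicate block, averaging of tumors 11 and 12, and each sample left out; leaving out tumors 2 and 10 together, and adjusting the correlations over all genes tested, were added after seeing the data.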

Additional observations from a re-analysis of the deposited data

Results flagged for a closer look

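Among the livers, 23 results (values of named members and marker scores) were examined for a sample far from the other 5, by the gap to the nearest sample divided by the range, against a critical value of 0.625. Chance flags about 1 in 20, which is 1.15 of 23, and 5 were found. Mmp12 stood out in liver 1, at a scaled TPM of 20.5 where the next liver had 6.61 (ratio 0.710). The neutrophil marker score stood out in the same liver, at 1.02 with 0.420 in the next (ratio 0.767). Timp2 stood out in liver 5, at 8.94 with 5.67 in the next (ratio 0.656). Adamts6 in liver 2 and Timp1 in liver 6 each had a ratio of 1.0, since each rests on a deposited value of 1 where the other 5 livers were at 0.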

How the results depend on the processing

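Members called higher, 5 in the fit reported, were 2 without scaling (Loxl4 and Mmp24, with 5.03% of all genes higher). They were 1 among E19 samples alone (7.73%) and 2 among E20 samples alone (Adamts1 and Adamts10, 2.82%). Among livers and tumors 1 to 6 they were 3 without a replicate block (6.08%) and 2 with it (6.38%). Leaving out 1 sample gave 4 to 6, Adamts14 being the sixth, where 8.06 to 14.8% of all genes were higher. Members called lower, 0 in the fit reported, were 1 without scaling (5.04% of all genes lower), 2 with sample quality weights (20.2%) and 1 among E19 samples (5.49%). They were 1 without tumors 2 and 10 (12.4%), and 0 to 1 with a sample left out (6.09 to 11.4%). The companion genes called higher (10) were 17 with quality weights (19.9% of all genes higher), 3 in E19 (7.73%) and 5 in E20 (2.82%). They were 6 with the block (6.38%), 5 without it (6.08%), and 8 to 14 with a sample left out (8.06 to 14.8%). Those called lower (2) were 1 without scaling (5.04% of all genes lower), 1 in E19 (5.49%) and 0 in E20 (1.11%). They were 1 with the block (6.46%), 1 without it (5.38%), and 1 to 2 with a sample left out (6.09 to 11.4%). Members whose correlation with the fibroblast score passed were 4 under the adjustment first planned, over the 18 members, and 0 with adjustment over all genes. Under the first they were 11 without scaling, 2 to 4 with a tumor left out and 0 without tumors 2 and 10. No share of all genes was computed under that adjustment. The cause of these shifts was not tested, but E19, E20 and the block use fewer samples, and without scaling the values of tumor 2 stay low and the median log2 difference of all genes moved from −0.06 to −0.18.

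Directions changed for uncalled members: Mmp12 was 0.0597 in E19, and Timp2 was −0.06075 without scaling, −0.00066 with the tag as covariate, −0.0539 in E19, −0.205 with and without the block and −0.0228 without tumor 9 (up to 0.196 with another sample left out). Mmp15 lost its call in E19 (adjusted p = 0.10), E20 (0.31) and with or without the block (0.12 and 0.10), Adamts1 in E19 (0.25) and with the block (0.055), Loxl4 in E19 (0.054) and Mmp14 in E20 (0.052), all by limma. Replicate numbers were not used to pair the samples. Over 6 same-number pairs the mean correlation of deviations was 0.178 (−0.105 to 0.422, 3 above 0.1), beside −0.036 over the 30 other pairs. Of the 6 livers, 3 correlated best with their own number. Most same-number pairs also share the tag, and whether the numbers link samples was not tested. Mmp24 was called in all 28 alternatives that tested it. It was listed at 0 in every liver, so its direction was set wherever it was tested, and these calls add nothing on the direction. Over all alternatives the log2 difference of Loxl4 ran from 1.01 to 3.35 and that of Mmp14 from 1.18 to 1.51. Rounding to whole TPM limits every member near 1.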
